A study of Homo sapiens with 16 samples.

Results

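H3K27ac ChIP-seq was examined in 7 libraries of K562 cells, an established human erythroleukemia line that grew out of a chronic myelogenous leukemia. These libraries form the normalized arm of the study, in which the antibody was scaled to the chromatin so that every reaction had titer 1, a ratio set at 0.25 µg of antibody for 10 µg of chromatin. They are 7 of the 16 libraries of the series and 7 of its 14 peak lists, and their peaks were called against 1 shared input library. Chromatin came from fixed, untreated cells and was measured as its DNA. The small amounts were 310, 620 and 1250 ng (0.31-T1, 0.62-T1 and K562-H3K27ac-1.25-T1, called the 1250 ng library here), the midpoint was 2.5 µg (2.5-T1), and the large amounts were 5, 10 and 20 µg (5-T1, 10-T1b and 20-T1). There was 1 library per amount, and the study's methods describe the amounts as aliquots of prepared chromatin rather than separate cultures. No p-value or SD here thus covers spread between cultures. Each SD is over 3 different amounts, so it also holds any effect of the amount. Spread between repeats of 1 amount cannot be estimated. The question was which promoters, distal sites and genes depend on the amount of chromatin when the titer is constant, with and without 0.31-T1.

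H3K27ac is an acetyl mark on a histone tail that is deposited by CBP and p300 and read by bromodomain proteins. It lies around the start sites of active genes and at active enhancers, and it forms broad domains over genes that define a cell's identity. In erythroid cells such domains surround GATA1, TAL1 and the globin loci. In ChIP, acetylated chromatin is recovered with an antibody, and a site is called a peak where its reads pile up above the background.

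Only peaks whose −log10 q reached 2, which is a q-value of 1%, were counted on chromosomes 1 to 22 and X in GRCh38. A promoter peak lay within 1 kb of the start of a protein-coding gene, and a distal peak lay more than 10 kb from every such start. The lists held 68108 peaks (0.31-T1) to 82101 peaks (the 1250 ng library). The number of reads is not in the lists, and mapping rates and library complexity were not analysed here. The background pileup, the lowest expected number of fragments over a base that the peak caller used, stood in for depth. How closely this background follows the number of reads was not examined. It was 0.765 in 0.31-T1, 0.863 in 0.62-T1, 0.917 in the 1250 ng library, 0.887 in 2.5-T1, 0.945 in 5-T1, 0.830 in 10-T1b and 0.744 in 20-T1. The smallest and largest amounts thus had the lowest backgrounds, and the background did not pass a test of trend with the chromatin amount (r = -0.10, exact permutation p = 0.812). The K562 markers GATA1, TAL1, LMO2, NFE2, TFRC, HBG1, HBG2 and EPOR all had a promoter peak in each of the 7 lists. Of the markers of other cells, CD79A of B cells was in all 7 lists and CD3D of T cells in 2 lists. The B cell genes MS4A1 and PAX5, the T cell genes CD3E, CD3G and CD8A and the hepatocyte genes ALB, APOA1 and TTR were in none.

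Promoters that separated the small from the large amounts were few, and their sequences are shown first. Of the 25 genes named for such a pattern in the comparisons that follow, 20 had an entry among the RefSeq promoters of GRCh38.p14. The first 3 genes of each kind with an entry are printed, together with PSMB9, whose start faces that of TAP1. Each line is the 250 bases before the start site, 5′ to 3′ on the strand of the gene. Capitals mark matches on either strand, and none of the motifs lies within another. The GC box was searched as GGGCGG, a letter run that the factor SP1 is known to bind. The CCAAT box was searched by the letters of its name, and the TATA box, a core promoter element, as TATAAA. For the erythroid GATA factors the search used AGATAA together with the variant that opens with TG in place of AG. The AP-1 motif was searched as TGACTCA, and the E-box of MYC and USF as CACGTG. The promoters of OCA2 (chr15:28099316-28099565, minus strand), MXRA7 (chr17:76710966-76711215, minus), PPIC (chr5:123036726-123036975, minus) and PSMB9 (chr6:32853942-32854191, plus) had a peak in all 3 large and no small library.
OCA2: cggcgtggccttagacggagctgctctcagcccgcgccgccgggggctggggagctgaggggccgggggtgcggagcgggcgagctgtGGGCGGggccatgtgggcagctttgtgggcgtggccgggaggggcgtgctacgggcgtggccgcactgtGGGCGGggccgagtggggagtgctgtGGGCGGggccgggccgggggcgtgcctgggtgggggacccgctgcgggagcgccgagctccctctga
MXRA7: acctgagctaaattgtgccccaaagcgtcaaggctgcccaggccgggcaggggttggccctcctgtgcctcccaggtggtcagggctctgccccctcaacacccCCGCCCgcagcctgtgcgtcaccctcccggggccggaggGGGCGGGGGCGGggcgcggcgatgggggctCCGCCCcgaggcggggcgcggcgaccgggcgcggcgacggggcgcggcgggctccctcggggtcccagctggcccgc
PPIC: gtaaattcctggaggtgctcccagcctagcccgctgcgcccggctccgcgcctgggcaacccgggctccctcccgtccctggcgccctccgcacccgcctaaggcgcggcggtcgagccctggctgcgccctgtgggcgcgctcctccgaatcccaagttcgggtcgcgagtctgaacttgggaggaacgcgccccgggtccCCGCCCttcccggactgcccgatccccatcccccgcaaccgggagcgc
PSMB9: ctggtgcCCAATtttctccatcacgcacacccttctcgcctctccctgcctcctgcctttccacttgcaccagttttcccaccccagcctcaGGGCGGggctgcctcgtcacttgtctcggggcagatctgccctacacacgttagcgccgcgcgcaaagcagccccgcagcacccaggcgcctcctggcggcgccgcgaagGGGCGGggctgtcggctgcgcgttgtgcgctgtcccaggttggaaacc

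The promoters of NLGN3 (chrX:71144591-71144840, plus), HTR4 (chr5:148637062-148637311, minus) and FAM162B (chr6:116765720-116765969, minus) had a peak in all 3 small and no large library.
NLGN3: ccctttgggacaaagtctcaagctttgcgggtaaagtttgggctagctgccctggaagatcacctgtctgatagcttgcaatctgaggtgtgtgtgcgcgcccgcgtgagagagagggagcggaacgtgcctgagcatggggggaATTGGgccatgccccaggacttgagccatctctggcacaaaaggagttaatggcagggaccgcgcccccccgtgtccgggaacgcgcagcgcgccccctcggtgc
HTR4: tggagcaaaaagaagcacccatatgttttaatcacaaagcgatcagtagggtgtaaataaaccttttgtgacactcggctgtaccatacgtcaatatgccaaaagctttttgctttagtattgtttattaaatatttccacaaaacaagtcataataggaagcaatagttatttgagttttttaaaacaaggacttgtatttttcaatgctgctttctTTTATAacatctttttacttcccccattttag
FAM162B: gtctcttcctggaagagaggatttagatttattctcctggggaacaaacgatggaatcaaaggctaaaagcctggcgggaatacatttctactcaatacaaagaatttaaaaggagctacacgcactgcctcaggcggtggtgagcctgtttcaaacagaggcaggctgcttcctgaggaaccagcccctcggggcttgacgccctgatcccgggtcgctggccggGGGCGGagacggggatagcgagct

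The 4 promoters of the first set held 21 to 30 CpG dinucleotides in 250 bases, and those of NLGN3, HTR4 and FAM162B held 16, 3 and 12. Peaks did not cover the start in every library that held one. Over the 3 libraries of the kind, the longest distance from the start to the nearest peak was 224 bp at OCA2, 326 bp at MXRA7, 329 bp at PPIC, 514 bp at PSMB9, 966 bp at NLGN3, 978 bp at HTR4 and 633 bp at FAM162B. Over 1 promoter for each of 15812 genes, the median was 17 CpG dinucleotides, with 21 in genes that had a peak in all 7 lists and 6 in genes with none. The 24 genes of the large-only kind with an entry had a median of 18. The GC box was in 56.0% of all promoters, in 68.9% of those in all 7 lists and in 16 of these 24 (66.7%). The CCAAT box was in 34.4% of all promoters, in 35.8% of those in all 7 lists and in 7 of 24. The TATA box was in 9.25%, 5.05% and 1 of 24, and the GATA motif in 10.9%, 6.54% and 3 of 24. The AP-1 motif was in 3.17%, 2.30% and 1 of 24, and the E-box in 7.83%, 9.28% and 2 of 24. With 24 promoters these shares are a description only.

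More promoter sequence was under peaks in the libraries from more chromatin, while nearly as many genes were found. A gene was counted where a peak lay within 1 kb of one of its starts. The number of genes was 10821 in 0.31-T1, 11101 in 0.62-T1, 11246 in the 1250 ng library, 11149 in 2.5-T1, 11345 in 5-T1, 11279 in 10-T1b and 11345 in 20-T1. All 3 large libraries lay above all 3 small ones, with 11323 ± 38.1 genes against 11056 ± 216 (SD, n = 3 each). The length of promoter peaks was 20.7, 23.8 and 25.7 Mb in the small libraries in order of amount, 24.8 Mb at the midpoint and 27.3, 26.7 and 27.2 Mb in the large libraries. From 0.31 to 20 µg, the pair with the most similar backgrounds, genes rose 1.05-fold and promoter length 1.31-fold in this single pair of libraries. The rise was therefore mainly in how much of each promoter was covered.

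Over whole lists the number of distal peaks was lowest at the smallest amount, but above it this number did not pass a test of trend. The number of distal peaks was 32539, 39262 and 41939 in the small libraries, 38626 at the midpoint and 42118, 40322 and 40245 in the large libraries. Here the 1250 ng library lay above both 10-T1b and 20-T1, and only 0.31-T1 stood apart from the rest. The length of distal peaks was 22.3, 27.2 and 30.3 Mb in the small libraries, 28.2 Mb at the midpoint and 31.9, 30.5 and 31.4 Mb in the large ones. Each large library exceeded each small one in length, with 31.3 ± 0.712 Mb against 26.6 ± 4.01 Mb (SD, n = 3 each).

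**Figure D1:**
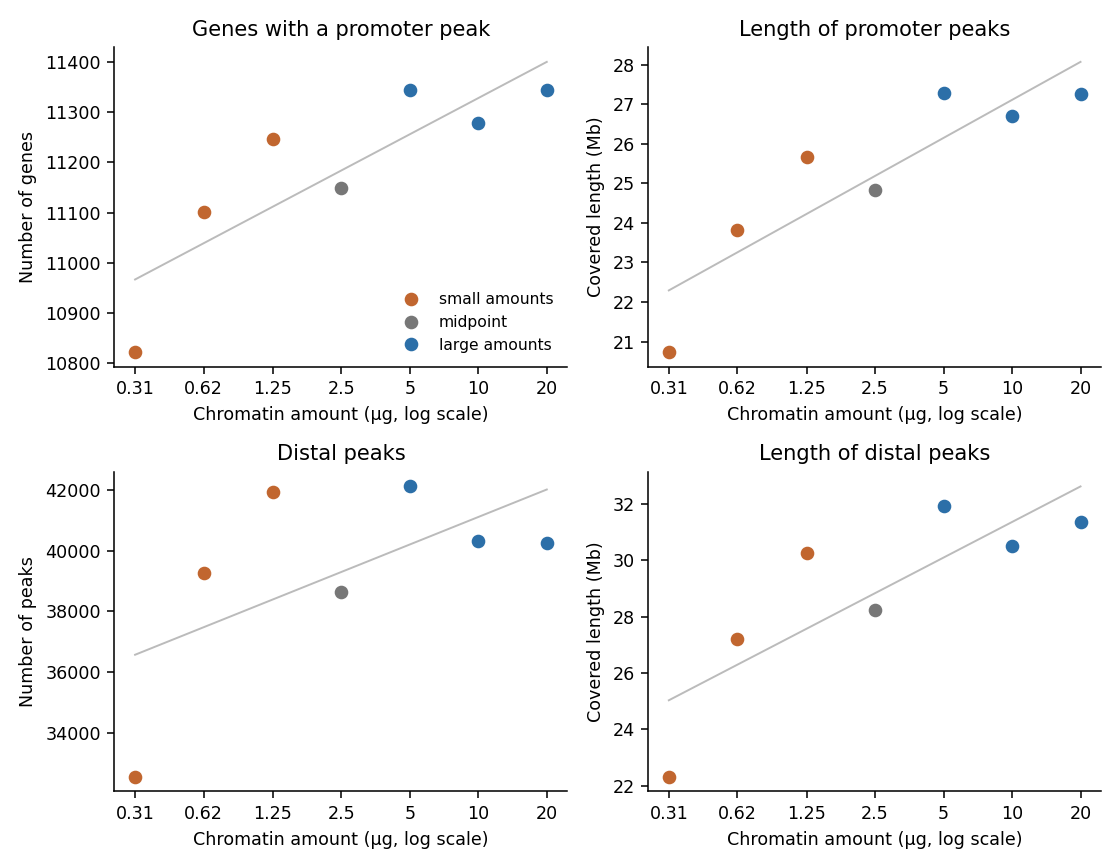
Genes with a promoter peak, length of promoter peaks, number of distal peaks and length of distal peaks (y axes, which do not start at 0) against the chromatin amount in µg (log x axis), with 1 point per library and a least-squares line. The 3 large libraries lie above the 3 small ones in all panels except the number of distal peaks, and 0.31-T1 is the lowest point of each panel.

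A family of 8 trends against log2 of the chromatin amount was tested by exact permutation of the 7 libraries, two-sided, with Benjamini-Hochberg adjustment. The number of genes with a promoter peak rose by 72.3 per doubling (r = 0.85, exact p = 0.00794, adjusted 0.0159, Spearman's rho = 0.90, p = 0.00952). Promoter length rose by 0.960 Mb per doubling (r = 0.89, exact p = 0.00536, adjusted 0.0159, rho = 0.86, p = 0.0238). Distal length rose by 1.26 Mb per doubling (r = 0.82, exact p = 0.0145, adjusted 0.0193, rho = 0.86, p = 0.0238). For the number of distal peaks r was 0.61 (exact p = 0.132, adjusted 0.132, rho = 0.50, p = 0.267), which did not pass. The medians of peak width also rose, from 899 bp in 0.31-T1 to 1201 bp in 20-T1 at promoters (r = 0.88, exact p = 0.00655, adjusted 0.0159, rho = 0.86, p = 0.0238) and from 375 to 399 bp at distal peaks (r = 0.81, exact p = 0.0306, adjusted 0.0349, rho = 0.71, p = 0.0881). The distal median was highest in 5-T1 (410 bp) and 2.5-T1 (400 bp). The shortest deposited peak was also longest there, at 173 and 172 bp, against 160 bp in 0.31-T1 and 161 bp in 20-T1. Whether this bears on the widths was not tested. With 3 against 3 libraries the exact test of small against large amounts cannot go below 0.1, which it reached for every measure except the number of distal peaks (p = 0.4).

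Leaving out 0.31-T1 lowered each of these slopes. Over the 6 remaining libraries the promoter length kept an unadjusted exact p of 0.0375 (r = 0.86, 0.648 Mb per doubling), and promoter width one of 0.0458 (r = 0.83). The gene number had r = 0.80 (exact p = 0.0556, 43.2 genes per doubling), distal length r = 0.74 (p = 0.101), distal width r = 0.70 (p = 0.117) and the number of distal peaks r = 0.14 (p = 0.756). After adjustment over the 8 trends no p was below 0.111 without 0.31-T1, so none passed. Without both the smallest and the largest amount no trend passed over the 5 libraries in between, with no exact p below 0.0833. A test over 5 libraries also has fewer orders, so a weaker trend and a weaker test cannot be told apart by p. The r values there were 0.84 for promoter length, 0.77 and 0.80 for promoter and distal width, 0.73 for genes and 0.69 for distal length, and it was the number of distal peaks that fell to 0.23.

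Which sites were lost depended on their strength. The peaks of 10-T1a, the library of the fixed-antibody arm that also had 10 µg of chromatin at titer 1 but another input, served as a list from outside these 7 libraries. A 10-T1a peak was recovered where a peak shared at least 1 bp with it. Of 16907 promoter peaks, 86.3% were recovered in 0.31-T1, 90.0% in 0.62-T1, 91.1% in the 1250 ng library, 90.1% in 2.5-T1, 92.2% in 5-T1, 92.3% in 10-T1b and 93.2% in 20-T1. This order followed the amount but for the midpoint (r = 0.89, exact p = 0.00179, adjusted 0.0143, rho = 0.96, p = 0.00278), and without 0.31-T1 the unadjusted exact p was 0.0139 (r = 0.90). Of 39733 distal peaks, 49.0%, 56.2% and 59.3% were recovered in the small libraries, 56.8% at the midpoint and 61.2%, 60.6% and 60.9% in the large ones (r = 0.83, exact p = 0.0115, adjusted 0.0184, rho = 0.86, p = 0.0238). Without 0.31-T1 the trend of distal recovery had r = 0.78 and an exact p of 0.0819.

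In the strongest quintile of 10-T1a peaks by fold enrichment, recovery was close to complete at every amount. It was 99.5% in 0.31-T1 and 99.9% in 20-T1 at promoters, and 98.4% and 99.5% at distal sites. In the weakest quintile, promoter recovery was 35.9% in 0.31-T1 (95% Wilson interval 32.8 to 39.1%), 47.0% in 0.62-T1 and 51.3% in the 1250 ng library, against 56.9%, 57.4% and 57.1% in the large libraries. The weakest distal peaks were recovered at 27.2%, 35.3% and 38.5% in the small libraries and at 40.5%, 39.1% and 38.4% in the large ones, so the 1250 ng library was level with 20-T1 within the counting intervals. Each interval covers counting error only.

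**Figure D2:**
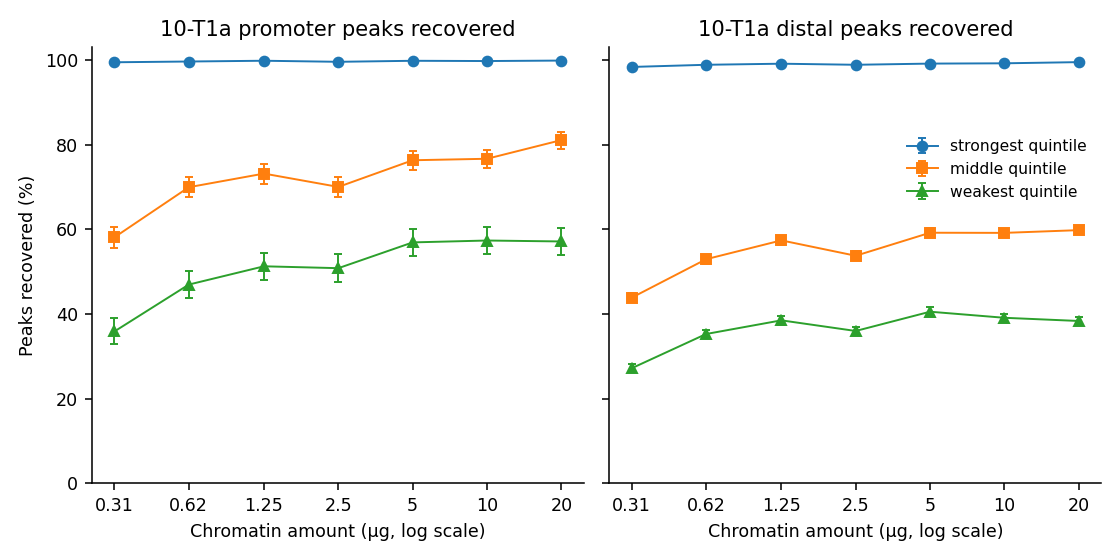
Share of 10-T1a promoter peaks (left) and distal peaks (right) that were recovered in each library, in percent, against the chromatin amount in µg (log x axis), for the weakest, middle and strongest quintile of fold enrichment, with 95% Wilson intervals. The strongest quintile stays above 98% at every amount, while the weakest promoter quintile lies between 35.9% and 57.4%.

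Sites that were present at every amount became broader and more enriched. Merging the 7 lists gave 27116 regions with a peak in every list, 12126 of them at promoters and 10883 distal. The median length under peaks in these promoter regions was 1449.5 bp in 0.31-T1, 1647 bp in 0.62-T1, 1762 bp in the 1250 ng library, 1703.5 bp in 2.5-T1, 1821.5 bp in 5-T1, 1808 bp in 10-T1b and 1854.5 bp in 20-T1. In the distal regions it was 976, 1160 and 1292 bp in the small libraries, 1214 bp at the midpoint and 1349, 1353 and 1408 bp in the large libraries. From 0.31-T1 to 20-T1, 84.9% of the promoter regions and 82.1% of the distal regions gained length, by a median of 347 and 359 bp. Against 0.62-T1 in place of 0.31-T1, 20-T1 was longer in 70.2% and 70.3%.

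These regions held more of the gain than the others. Between 0.31-T1 and 20-T1 the covered length grew by 5.30 Mb in promoter regions found in all 7 lists and by 0.676 Mb in promoter regions found in 1 to 6 lists. For distal regions the gains were 4.82 Mb in the 10883 regions found in every list and 4.30 Mb in the 67758 others. The length in the common distal regions kept its trend without 0.31-T1 (r = 0.86, exact p = 0.0375), while that in the others did not (r = 0.57, exact p = 0.249).

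The median fold enrichment of the strongest peak in the common regions rose with the amount as well. At promoters it was 9.80, 10.4 and 10.8 in the small libraries, 10.2 at the midpoint and 10.7, 11.2 and 12.2 in the large ones. At distal sites it was 6.29, 6.51 and 6.71, then 6.50 at the midpoint, and 6.76, 7.29 and 7.81. By fold enrichment the groups did not overlap at distal sites, whereas at promoters 5-T1 lay just below the 1250 ng library. In a family of 11 trends chosen after the data were seen, the common promoters had r = 0.87 for fold enrichment (exact p = 0.00794, adjusted 0.0146, rho = 0.82, p = 0.0341) and r = 0.88 for length (exact p = 0.00337, adjusted 0.00786, rho = 0.93, p = 0.00675). The common distal regions had r = 0.90 for fold enrichment (exact p = 0.00278, adjusted 0.00786, rho = 0.89, p = 0.0123) and r = 0.91 for length (exact p = 0.00337, adjusted 0.00786, rho = 0.96, p = 0.00278). Without 0.31-T1 the r values were 0.80, 0.88, 0.87 and 0.89 in that order, with unadjusted exact p of 0.0444, 0.0236, 0.0167 and 0.0236. Without 0.31-T1 and 20-T1 they were 0.63, 0.83, 0.79 and 0.83, with exact p of 0.1 to 0.267 over 5 libraries, so none passed. Most r values moved little, and a test over 5 libraries is also weaker.

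Fold enrichment includes a pseudocount of 1 on both pileups, so it also moves with depth. The summit pileup was therefore also divided by the background of the library. At common promoters its median was 27.4, 27.8 and 28.4 in the small libraries, 28.2 at the midpoint and 28.6, 31.3 and 36.3 in the large ones (r = 0.82, exact p = 0.000794, adjusted 0.00786, rho = 0.96, p = 0.00278). The groups did not overlap there, and r was 0.81 without 0.31-T1 and 20-T1 (exact p = 0.0333). At common distal regions it was 17.0, 17.4 and 17.5, then 16.9, and 16.9, 19.3 and 22.9 (r = 0.74, exact p = 0.0399, adjusted 0.0487, rho = 0.46, p = 0.302). Here 5-T1 lay below all 3 small libraries, and r was 0.57 without 20-T1 (exact p = 0.276) and 0.76 without 0.31-T1 (exact p = 0.0681). On this scale the distal trend thus did not pass when either library was left out, while distal fold enrichment had r = 0.86 without 20-T1 (exact p = 0.0194).

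**Figure D3:**
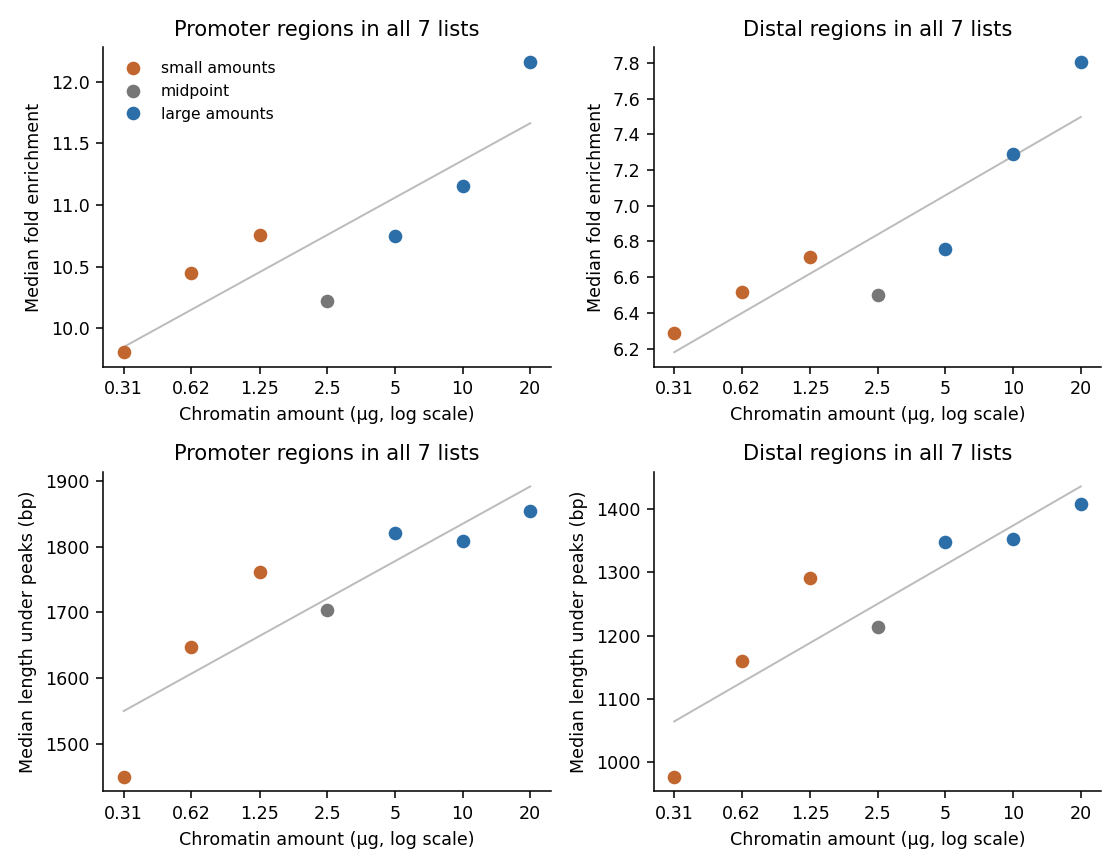
Median fold enrichment (top) and median length under peaks in bp (bottom) over the 12126 promoter regions (left) and 10883 distal regions (right) with a peak in all 7 lists, against the chromatin amount in µg (log x axis), with 1 point per library and a least-squares line; y axes do not start at 0. All 4 medians are lowest in 0.31-T1 and highest in 20-T1, and the midpoint lies below the 1250 ng library in each.

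No single promoter or distal region among these passed a test of its own trend. Log2 fold enrichment was centred on the median of each library, so that a slope says how a region moved relative to the others, and limma was fitted over all 27116 regions with Benjamini-Hochberg adjustment at 5%. It called 0 regions (0%), with 560 rising (2.07%) and 1117 falling (4.12%) at an unadjusted p under 0.05. Among promoters 269 rose and 477 fell at that unadjusted level, and among distal regions 220 and 454. In simulated libraries of the same 27116 regions, with noise of each region's observed SD, this fit recovered 100% of slopes of 0.5 (log2 per doubling). It recovered 37% of slopes of 0.2 and made 2 calls among regions without a planted slope. Most slopes of 0.2 were thus missed with 7 libraries, and smaller ones were not simulated. Without centring 1 promoter was called, that of AP2M1, which encodes a subunit of the clathrin adaptor AP-2 (adjusted p = 0.0383). Centring also set the balance of directions, with 45.6% of promoter slopes above 0 when centred and 79.7% when not, and 43.7% and 77.5% of distal slopes.

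The regions with the lowest p in each direction are given as values, since none passed. At the AP2M1 promoter (chr3:184174868-184179607) fold enrichment was 7.17, 8.87 and 10.5 in the small libraries, 10.1 at the midpoint and 20.6, 17.8 and 21.8 in the large ones. The groups did not overlap, and the slope was 0.23 ± 0.0432 (log2 per doubling, SE, limma adjusted p = 0.255). The fragments at the summit of AP2M1 were 24, 28 and 39, then 18, and 39, 32 and 37, and these overlapped between the groups, while their ratio to the local background did not. At GCFC2 it was 6.02, 7.18 and 6.80, then 9.75, and 14.1, 12.3 and 18.1. At CD52, which encodes a small surface glycoprotein of lymphocytes and shares the region with UBXN11, it was 3.47, 5.03 and 6.93, then 9.18, and 9.48, 9.87 and 10.7. GCSH, the hydrogen carrier protein of the glycine cleavage system, ranged from 3.92 in the 1250 ng library to 11.9 in 20-T1, and ZNF689 from 10.5 in 0.31-T1 to 24.0 in 20-T1. By fold enrichment every large library exceeded every small one at these 5 promoters. By fragments at the summit the groups overlapped at AP2M1, GCFC2 and ZNF689, but not at CD52 and GCSH. The part of the local background in these fold enrichments was not examined. These 5 promoters were picked by p from these same values, so the separation by fold enrichment follows largely from the choice. How many of all common regions separate in this way was not counted.

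In the other direction, the promoter of PPP2CA, the catalytic subunit of protein phosphatase 2A (chr5:134223738-134227484), had fold enrichments of 21.6, 23.0 and 12.3 in the small libraries, 15.4 at the midpoint and 12.1, 10.5 and 11.1 in the large ones. Its slope was -0.23 ± 0.0414 (adjusted p = 0.255), and limma called it once the 1250 ng library was left out (adjusted p = 0.0401). Its fragments at the summit did not fall in step, with 45, 51 and 25 in the small libraries, 42 at the midpoint and 51, 41 and 41 in the large ones. The other 4 were the promoters shared by ODAD1 and EMP3 (27.8 in 0.62-T1 to 13.2 in 20-T1), and those of UBL7 (14.1 in 0.31-T1 to 7.65 in 10-T1b), the small GTPase gene RAP2B (20.4 in 0.62-T1 to 12.9 in 10-T1b) and the splicing factor gene YJU2 (19.3 in 0.31-T1 to 8.47 in 20-T1). By fragments at the summit, the small and large libraries overlapped at YJU2 (40, 31 and 32 against 33, 29 and 31) and at RAP2B. They did not overlap at ODAD1 (52, 65 and 54 against 43, 47 and 49) or at UBL7. The limma adjusted p of these 4 was 0.393 to 0.426.

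Among distal regions the lowest p of a rise was near SLC19A1, the reduced folate carrier gene (chr21:45590741-45591675), where fold enrichment was 3.11, 3.24 and 3.61 in the small libraries, 7.27 at the midpoint and 5.15, 8.03 and 10.7 in the large ones. A region at SOX6, which encodes a transcription factor of definitive erythropoiesis (chr11:16280569-16281583), had 6.68, 5.51 and 7.72, then 9.36, and 8.58, 14.0 and 15.3. The others were nearest to SUSD1 (4.27 in 0.31-T1 to 14.4 in 10-T1b), ATP6AP2 (3.67 in 0.62-T1 to 8.97 in 20-T1) and LRRC10 (3.80 in 0.31-T1 to 9.90 in 20-T1). The lowest p of a fall was at WWOX (chr16:78428505-78429533), with 6.18, 6.14 and 6.88 in the small libraries, 3.39 at the midpoint and 3.91, 3.47 and 3.35 in the large ones. The regions nearest to NUP153, GLDC, ADGRV1 and IVNS1ABP followed, with fold enrichments of 22.6, 20.6, 7.46 and 6.91 at their highest, all in a small library. At GLDC the summit held 30, 38 and 35 fragments in the small libraries, 33 at the midpoint and 32, 35 and 35 in the large ones, so there too the pileups overlapped. None of these 10 regions passed (limma adjusted p = 0.393 to 0.676).

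Genes were next sorted by whether their promoter had a peak at all. Of 19630 protein-coding genes, 10461 (53.3%) had a promoter peak in all 7 lists, 7626 in none and 1543 in 1 to 6. Of the latter, 344 had a peak from some amount upward and none below it, and 50 had a peak up to some amount and none above it. The 344 include 158 genes absent only from 0.31-T1 and 90 present only in 20-T1. The 50 include 17 present only in 0.31-T1 and 22 absent only from 20-T1. Many of these patterns thus rest on 1 library at an end of the range. Only 35 genes (0.178%) had a peak in all 3 large and no small library, and 7 genes (0.0357%) had the reverse. The midpoint library had a peak at 20 of the 35 and at 4 of the 7. Without 0.31-T1, which also lowers the number of small libraries that must hold or lack a peak from 3 to 2, the counts were 52 (0.265%) and 17 (0.0866%). The single library with the most particular absences was 0.31-T1, as 158 genes lacked a peak there and in no other list, against 10 to 41 genes for each of the other libraries. These counts carry no test, since 3 against 3 libraries cannot pass 0.05.

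The genes that separated the amounts had weak peaks. The 35 large-only genes had a median percentile of 37.5 among the peaks of their lists and a median of 9 fragments at the summit, against 90.5 and 29 for genes found in all 7 lists. OCA2, which encodes a melanosomal membrane protein, had no peak in the small libraries and fold enrichments of 4.61 at the midpoint and 4.84, 5.87 and 5.75 in the large ones, with 8 to 11 fragments at the summit. MXRA7 had 5.49, then 5.14, 5.10 and 5.88. PSMB9, a subunit of the immunoproteasome, and TAP1, the transporter that brings peptides to MHC class I, have facing starts. Both had the same strongest peak within 1 kb, with 4.63 at the midpoint and 5.18, 4.92 and 5.40 in the large libraries. All of these were absent from every small library and present from the midpoint upward.

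PPIC (cyclophilin C), ZNF585B and INPP5J (an inositol polyphosphate 5-phosphatase) appeared above the midpoint only, with 4.70, 5.03 and 6.38 at PPIC, 5.14, 4.92 and 5.02 at ZNF585B and 4.33, 6.15 and 4.09 at INPP5J. PITPNC1, a phosphatidylinositol transfer protein gene, had 4.24 at the midpoint and 4.37 to 5.66 in the large libraries, MTM1 (myotubularin, a phosphoinositide phosphatase) had 6.89 and 4.37 to 5.16, and SPDYE14, of the Speedy family, had 3.71 and 4.63 to 5.73. SPDYE14 belongs to a family of near-identical copies, so its reads are uncertain. With 0.31-T1 left out, LONRF2, FBXO27 and LFNG, a glycosyltransferase that modifies Notch, joined the first 10 genes of this kind. They had peaks in 0.31-T1 itself, with fold enrichments of 6.23, 6.02 and 4.42, but none in 0.62-T1 and the 1250 ng library.

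Of the 7 genes found in the small libraries only, ADGRE2, an adhesion receptor gene of myeloid cells (chromosome 19), stood out by its level. Its fold enrichment was 3.62 in 0.31-T1, 16.5 in 0.62-T1 and 15.3 in the 1250 ng library, with 6, 31 and 30 fragments at the summit. No peak came within 1 kb of a start at the midpoint or above. A peak that ends farther away counts as absent here, and the distance was not examined for ADGRE2. HTR4, a serotonin receptor gene, had 3.67, 8.05 and 5.55 and 5.02 at the midpoint. NLGN3 (a synaptic adhesion protein) had 5.47, 4.72 and 5.74, and FAM86B1, which has close paralogs that could share its reads, had 5.10, 5.90 and 5.74. FAM162B, HPGD (a prostaglandin-degrading dehydrogenase) and DRAXIN (an axon guidance protein) had peaks of 3.39 to 4.92 in the small libraries and also one at the midpoint. Leaving out 0.31-T1 added, among the first 10, ATP5MGL with 5.08 in 0.62-T1 and 15.8 in the 1250 ng library, CD81 with 10.6 and 3.35, SPIB, ZNF416 and H1-6. The strongest peaks of this kind therefore lay in 0.62-T1 and the 1250 ng library and were weak or missing in 0.31-T1.

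**Figure D4:**
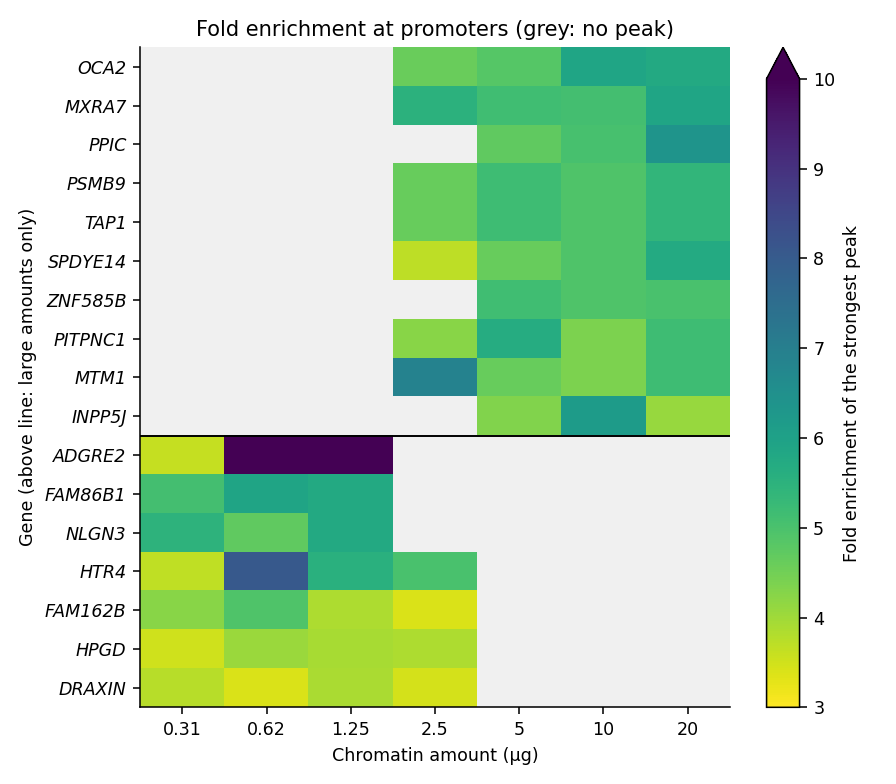
Fold enrichment of the strongest promoter peak (color, capped at 10) for the 10 first large-only genes (above the line) and the 7 small-only genes (below it) in each library, by chromatin amount in µg (x axis); grey marks genes without a peak. The large-only genes lie between 3.71 and 6.89, and ADGRE2 reaches 16.5 in 0.62-T1.

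Genes of erythroid identity were almost all marked at every amount. A promoter peak was in all 7 lists for 11 of 11 heme synthesis genes, 10 of 10 iron handling genes, 14 of 15 erythroid transcription factors (BCL11A was in none) and 16 of 17 genes of the red cell surface and membrane (ANK1 was in none). It was also in all lists for 34 of 34 proteasome genes, 84 of 87 cytosolic ribosomal protein genes, 22 of 23 acetylation writers, readers and erasers (BRDT was in none) and 13 of 14 AP-1 and immediate early genes (ATF3 was in none), against 53.3% of all genes. None of these lists had a gene that separated the amounts. The proteasome list holds the constitutive subunits, and the immunoproteasome subunit PSMB9, which was large-only, is not in it. GATA1 had fold enrichments of 11.9, 10.4 and 14.0 in the small libraries, 7.94 at the midpoint and 8.90, 9.90 and 13.6 in the large ones, so the groups overlapped. TAL1 ranged from 10.9 in 5-T1 to 16.8 in 10-T1b, and TFRC, the transferrin receptor, from 11.7 in 0.31-T1 to 21.9 in the 1250 ng library. In the limma fit none of the genes of these lists passed 5%, and the median slope was -0.02 in erythroid transcription factors, -0.03 in heme synthesis and -0.01 in cytosolic ribosomal proteins, beside -0.01 over all genes with a common promoter region.

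Among the globin genes 1 of 10 separated the amounts. HBB, the adult beta-globin gene, had no promoter peak in the 3 small libraries and fold enrichments of 4.14 at the midpoint and 3.53, 3.51 and 5.58 in the large ones. It was 1 of the 35 large-only genes. HBA2 had a peak at the midpoint only (4.57), and the other 8 of 10 globin genes were in all 7 lists. HBG1, a fetal gamma-globin gene, had 9.36, 6.75 and 10.1 in the small libraries, 11.3 at the midpoint and 12.7, 15.3 and 15.5 in the large ones. Its neighbor HBG2 had 10.9, 10.7 and 12.5, then 15.4, and 11.8, 15.3 and 12.1, so at HBG2 the groups overlapped. HBG1 and HBG2 are near-identical copies, as are HBA1 and HBA2, and their reads may be shared. The median slope of the list was 0.00 in the limma fit, and no member passed.

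Lists of other tissues stayed largely unmarked at each amount. No neuronal and no hepatocyte gene of 12 each was in all 7 lists, and SLC17A7, APOA2 and F2 had peaks in 1 to 3 lists. Of 386 olfactory receptor genes 374 were in no list, 7 were in all and 1, OR51D1, was large-only, with 3.23, 3.32 and 4.11. Of 39 HOX genes 9 were in all lists, and HOXC10 lacked a peak in 0.31-T1 only, with 5.14 to 9.75 in the others, while HOXC13 had a peak in 0.31-T1 alone (3.97). Of 20 lymphoid genes CD79A and CD7 were in all lists, and CD3D, CD5 and TCF7 were in 2 to 6. In the megakaryocyte and platelet list, ITGA2B, GP1BB and GP9 were in all 7 lists, 8 of 12 genes were in none, and ITGB3 was found in 5-T1 and 20-T1 (3.60 and 3.90). Among ribosomal genes RPL3L was found in 5-T1 alone (3.80). The control loci ACTB, GAPDH and SMARCA4 were in all lists, with 20.4 to 27.9, 11.6 to 19.6 and 11.1 to 15.7, and the negative control MYT1 was in none.

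Distal regions changed between lists far more often than promoter regions. Of 16805 merged promoter regions 12126 (72.2%) were in all 7 lists, 77 (0.458%) were large-only and 7 (0.0417%) small-only. Of 78641 merged distal regions 10883 (13.8%) were in all 7 lists. Those found in all 3 large and no small library numbered 533 (0.678%), and those of the reverse kind 158 (0.201%). Over all 134097 merged regions, distal ones included, the counts were 910 (0.679%) and 242 (0.180%), so the distal shares were close to those over all. Without 0.31-T1 the order of the distal counts turned, with 780 (0.992%) large-only and 928 (1.18%) small-only regions. It also turned over all regions, with 1308 (0.975%) and 1509 (1.13%). A small-only region then had to be in 2 libraries, however, and a large-only region still in 3. The part of the library and the part of this lower requirement cannot be told apart. Regions missing from a single list numbered 1025 for 0.31-T1 and 244 to 448 for each of the others. The large-only regions were weak, with a median percentile of 34.3 and 8.67 fragments at the summit, and the small-only regions had 28.1 and 8.33, against 73.3 and 16.3 for distal regions in every list.

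The strongest large-only distal regions lay nearest to EFCAB3 (chr17:62233333-62233927; 4.24 at the midpoint and 6.69, 6.01 and 7.45 in the large libraries), ZNF680 (6.50, 5.89 and 6.18, with no peak at the midpoint), LCTL, NOSIP and SMARCA2. SMARCA2 encodes an ATPase of the SWI/SNF chromatin remodeler, and its intragenic region (chr9:2125335-2126041) had 3.84 at the midpoint and 5.37, 5.46 and 6.31 in the large libraries. The strongest small-only regions lay inside STXBP5 (5.47, 6.06 and 5.13), HSPA4, HNRNPM and USP42 and near TARP, with fold enrichments of 4.19 to 6.17 in the small libraries. With 0.31-T1 left out, a region near ZNF184 (chr6:27502312-27502974) came first of the large-only kind. It had 6.17 in 0.31-T1, no peak from 0.62 to 2.5 µg, and 8.87, 7.78 and 10.6 in the large libraries. Regions near ZNF81, DDX3X and ODF1 had the same pattern, apart from a midpoint peak at DDX3X, and regions near PPIAL4H, LARP4B, RAP2B and PRKAR1B joined the small-only kind, with 4.90 to 7.51 in 0.62-T1 and the 1250 ng library.

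The 2 kinds of distal region differed in where they lay. Of the 533 large-only regions 321 (60.2%) overlapped a protein-coding gene, and of the 158 small-only regions 136 did (86.1%), beside 69.7% of all distal regions and 55.7% of those in every list. Without 0.31-T1 the shares were 60.5% of 780 and 80.1% of 928. Among regions of a single list, the share inside genes was 66.7% in 20-T1 and 72.2% to 77.2% in each of the other 6 libraries. Regions that 20-T1 alone lacked lay inside genes in 79.3%, against 60.5% to 66.3% of those that another single list lacked. ANK1, FOXK2, KDM4B, RPTOR and TNRC18 each held 4 small-only regions without 0.31-T1, and CDC14A held 3 large-only regions. These genes were taken as those with the highest counts, after the values were seen.

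Over whole lists, distal length rose with the amount both outside and inside genes, and whether these trends differ from each other was not tested. Outside genes, distal peaks covered 9.20, 10.8 and 11.8 Mb in the small libraries, 11.1 Mb at the midpoint and 12.5, 12.2 and 13.0 Mb in the large ones. The groups did not overlap, and among the 11 trends chosen after the data were seen this one had r = 0.91 (exact p = 0.00357, adjusted 0.00786, rho = 0.93, p = 0.00675), and r = 0.88 without 0.31-T1 (exact p = 0.025). Inside genes the length was 13.1, 16.4 and 18.5 Mb, then 17.1 Mb, and 19.4, 18.3 and 18.4 Mb, and here the 1250 ng library lay above 10-T1b and 20-T1. That trend had r = 0.75 (exact p = 0.0393, adjusted 0.0487, rho = 0.61, p = 0.167) and r = 0.56 without 0.31-T1 (exact p = 0.26). Without 0.31-T1 and 20-T1 the r values were 0.80 outside and 0.61 inside genes (exact p = 0.125 and 0.292). The share of distal peaks that lay inside genes, a share of their number and not of their length, had no trend that passed over 7 libraries. It was 63.2%, 64.8% and 65.6% in the small libraries, 65.1% at the midpoint and 65.0%, 63.9% and 62.3% in the large ones (r = -0.33, exact p = 0.466, adjusted 0.466, rho = -0.25, p = 0.595). Without 0.31-T1, r was -0.79 and the unadjusted exact p 0.0417.

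**Figure D5:**
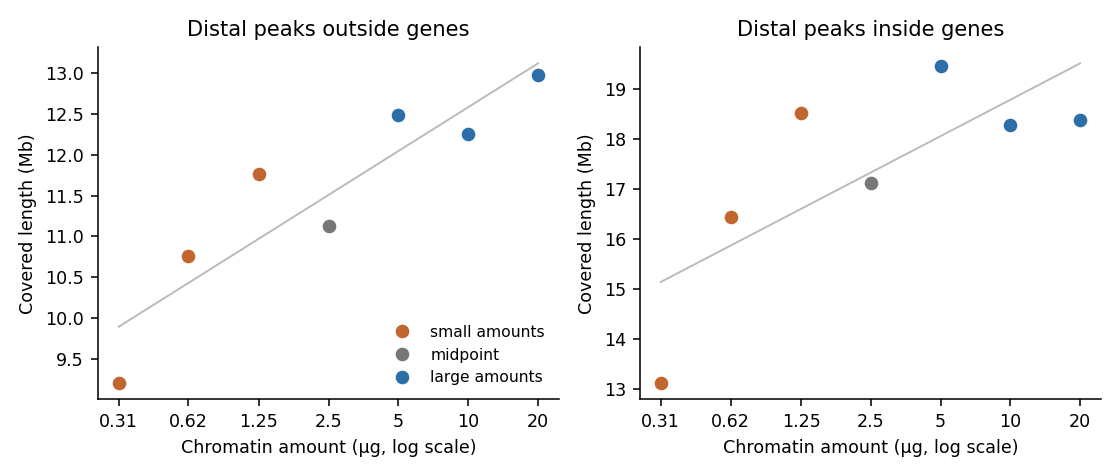
Length of distal peaks outside (left) and inside (right) protein-coding genes in Mb (y axes, which do not start at 0) against the chromatin amount in µg (log x axis), with 1 point per library and a least-squares line. Outside genes the 3 large libraries (12.2 to 13.0 Mb) lie above the 3 small ones (9.20 to 11.8 Mb), and inside genes the 1250 ng library lies above 10-T1b and 20-T1.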

How the data were processed

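K562 H3K27ac ChIP libraries of the normalized arm were compared as peak lists, 7 in all, with 10-T1a of the fixed-antibody arm as an outside list; the other 6 fixed-antibody lists were not used here, nor were the 2 input libraries, which have no peak list. The authors sequenced paired-end libraries, amplified in 12 PCR cycles, mapped them by BWA, and ran MACS2 on each library against its input. The submitters' processing notes give BWA 0.5.9, CASAVA 1.4 and hg38. The paper names hg19, but positions were read as GRCh38 here. The deposited columns used are the fold enrichment, a ratio of the pileup at the summit to the local background with a pseudocount of 1 on each, and the −log10 of the p-value and q-value. The deposited lists reach a q-value of 5%, and 1% was applied here.

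The members, gene lists and tests were chosen with earlier results of these data known. Whole summit pileups were solved from fold enrichment and p-value in 100% of peaks (tolerance 0.002 in −log10 p). The lowest local background stood in for depth. Gene starts came from RefSeq GRCh38.p14 for 19630 of 19974 protein-coding genes, with the strand by symbol from GENCODE for 3817 of them. Peaks of the 7 lists were merged where they overlapped. Trends were tested against log2 of the chromatin amount by exact permutation of 7 libraries (5040 orders) or 6 (720), two-sided. Regions with a peak in every list were fitted with limma (lmFit, eBayes with trend) on centred log2 fold enrichment of the strongest peak. Counts of sites that separate the groups were given without a test. The functions were checked on simulated data: without a trend the permutation p was under 0.05 in 3.5% of 200 simulations and with one in 97.5%, and 100% of 400 simulated pileups were recovered.

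Named genes are up to 10 of each kind that separates the amounts, with and without 0.31-T1, and 5 distal regions of each kind, by the highest mean percentile of fold enrichment in the lists that hold them; the 5 lowest p in each direction of the limma fit where none passed; 4 control loci; and exceptions of the gene lists. A few genes of the lists are not reported here. Alternatives were stricter q-values, all deposited peaks, equal list lengths, other distances, a reciprocal overlap of 50%, linear amounts, other scalings, adjustment for background, and leaving out each library. Precision is limited by 1 library per amount. Computation used Python 3.11.15, numpy 2.4.6, pandas 2.3.3, scipy 1.17.1, matplotlib 3.10.9, R 4.3.3 and limma 3.58.1.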

Additional observations from a re-analysis of the deposited data

Results flagged for a closer look

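The number of distal peaks was low in 0.31-T1, with 32539 peaks against 38626 to 42118 in the other 6 libraries. Its gap to the next library was 0.635 of the whole range, above Dixon's 95% limit of 0.568 for 7 values, which chance exceeds in about 1 of 20 groups. The same library recovered 49.0% of the 10-T1a distal peaks against 56.2% to 61.2% in the others, a gap of 0.59 of the range. Its background pileup, 0.765, was the second lowest after the 0.744 of 20-T1, which had 40245 distal peaks and recovered 60.9%. Whether depth had a part in the low values was not tested.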

How the results depend on the processing

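Of 206 alternatives over 20 results, 173 kept the direction and the side of the threshold or, for counts, stayed close to the reported value, and no trend changed sign. The balance of promoter regions at an unadjusted limma p under 0.05 did turn, from 269 rising and 477 falling when centred to 1542 and 54 without centring and 374 and 324 with quantile normalization. With the chromatin amount on a linear scale, no trend tested passed: r was 0.606 for genes with a promoter peak, 0.639 for promoter length, 0.56 for distal length, 0.648 and 0.49 for promoter and distal width, and 0.703 and 0.569 for promoter and distal recovery. The number of distal peaks passed at a −log10 q of at least 3 (r = 0.814) or 5 (0.876), with lists of equal length (0.795) and, chosen after seeing the data, after adjustment for the background pileup (0.838), while distal width did not pass at a −log10 q of at least 3 (0.569). With a reciprocal overlap of 50%, recovery had r = 0.632 at promoters and 0.667 at distal sites. The cause of these changes was not tested.

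Leaving out each library in turn gave r of 0.801 to 0.906 for genes, 0.864 to 0.928 for promoter length, 0.137 to 0.743 for distal peaks, 0.736 to 0.896 for distal length, 0.83 to 0.929 for promoter width, 0.702 to 0.884 for distal width, 0.863 to 0.926 for promoter recovery and 0.781 to 0.892 for distal recovery. Genes, distal length and distal recovery had an unadjusted exact p above 0.05 without 0.31-T1 only, and distal width also when the library left out was 0.62-T1 (0.77) or the 1250 ng library (0.808). For measures added later the ranges were 0.879 to 0.951 for distal length outside genes, 0.561 to 0.843 inside genes, where it was lost without 0.31-T1, 0.62-T1, 2.5-T1, 5-T1 or 10-T1b, and 0.8 to 0.912 for the fold enrichment of common promoters, lost without 20-T1 (0.806). Fold enrichment in common distal regions and both common lengths kept such a p under 0.05 without any single library.

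Small-only counts moved to 3 genes and 74 distal regions at a −log10 q of at least 3, and to 17 and 928 without 0.31-T1, where 2 small libraries rather than 3 have to hold the peak. limma called 0 to 1 promoter regions when a library was left out, 1 without centring (AP2M1) and, chosen after seeing the data, 1 for the pileup over the background of the library without centring (RTN3); with the other scalings it called 0. No paired analysis was possible because each amount had 1 library and the replicate numbers only name libraries. With 1 library per amount, a library effect and an effect of that amount cannot be told apart, and sites with under about 9 fragments at the summit are near the limit of detection.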
